A study of Mus musculus with 2 samples.

Results

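The Gimap genes (GTPases of immunity-associated proteins) encode small membrane-associated GTPases found mainly in lymphocytes. The 8 genes Gimap1, Gimap3, Gimap4, Gimap5, Gimap6, Gimap7, Gimap8 and Gimap9 were taken by symbol from the 31053 genes of the deposited count matrices. Transcripts were counted by UMIs (unique molecular identifiers, so that a captured RNA molecule counts once) in B cells that had been sorted by flow cytometry from the lamina propria of the colon of female C57BL/6J mice. The day 14 library came from mice that drank 2% dextran sulfate sodium (DSS, a polysaccharide that injures the colonic epithelium) for 7 days and then recovered for 7 days. The day 0 library came from untreated mice. Each day is 1 library, the labels do not say how many mice it holds, and both samples carry a DSS treatment tag. The question addressed here was how much of each Gimap transcript the B lineage classes and the few co-sorted T cells held, and whether this differed between recovery and the untreated state. With 1 library per day there was no test. The 95% intervals in parentheses cover counting error only, so no difference between days has a replicate check.

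Gimap proteins bind and hydrolyse GTP through a domain related to that of septins, and many sit on intracellular membranes. Loss of Gimap5 in rats and mice depletes peripheral T cells, and loss of Gimap1 depletes mature B and T cells. Gimap6 binds a protein of the autophagy family of Gabarap genes, Gimap3 and Gimap5 have been linked to Bcl2 family proteins, and Gimap4 has been tied to T cell death. The family is known mostly for lymphocyte survival.

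All 8 genes lie in a 124 kb stretch of chromosome 6, at chr6:48647234-48770851 in build mm10 by the GENCODE M21 annotation. Of the 13 annotated genes in it, 9 are protein-coding, and these are the 8 Gimap genes and Gm28053, a model that overlaps Gimap7, Gimap1 and Gimap5 on the same strand and took 8 UMIs in kept cells at day 14 and 7 at day 0. Gimap6 and Gimap3 are on the minus strand and the other Gimap genes on the plus strand. No 50-base word was shared between members in the last 500 bases of their transcripts, where a 3′ kit reads. Gimap1 also overlaps an annotated antisense gene, Gimap1os, and no source used here states whether counting used strand, so reads of the pair cannot be told apart.

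The RefSeq promoter table (GRCm38.p6) held 9 promoters for the 8 genes, each running from 250 bases before to 50 after a start site. Those of 4 genes that the results turn on are printed here 5′ to 3′ along the gene. Gimap6 leads in IgD-positive cells, and Gimap3 is prominent in T cells and near 0 in plasma cells. Gimap7 is lower at day 14 over all kept cells, though not beyond counting error in IgD-positive cells, and Gimap1 is lower in plasma cells at day 14 than at day 0. Capitals mark AGGAAG, a longer word around GGAA, the core recognised by ETS factors, and TGTGGT, the core recognised by RUNX factors. Both were marked on either strand (read as CTTCCT and ACCACA on the opposite one). Other words around GGAA were not marked. The Gimap6 window is chr6:48708195-48708494 on the minus strand, that of Gimap3 chr6:48770802-48771101 on the minus strand, that of Gimap7 chr6:48718371-48718670 on the plus strand and that of Gimap1 chr6:48738797-48739096 on the plus strand.
Gimap6 promoter: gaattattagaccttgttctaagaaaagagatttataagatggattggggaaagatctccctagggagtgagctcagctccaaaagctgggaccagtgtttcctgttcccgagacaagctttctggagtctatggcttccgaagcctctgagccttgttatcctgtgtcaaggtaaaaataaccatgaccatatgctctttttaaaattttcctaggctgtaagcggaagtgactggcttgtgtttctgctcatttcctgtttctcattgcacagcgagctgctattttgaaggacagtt
Gimap3 promoter: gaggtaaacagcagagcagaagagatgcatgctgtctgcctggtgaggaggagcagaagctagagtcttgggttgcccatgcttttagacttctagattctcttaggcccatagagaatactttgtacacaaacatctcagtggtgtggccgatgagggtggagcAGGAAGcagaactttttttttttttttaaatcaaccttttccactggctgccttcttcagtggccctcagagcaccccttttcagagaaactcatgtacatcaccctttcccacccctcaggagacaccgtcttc
Gimap7 promoter: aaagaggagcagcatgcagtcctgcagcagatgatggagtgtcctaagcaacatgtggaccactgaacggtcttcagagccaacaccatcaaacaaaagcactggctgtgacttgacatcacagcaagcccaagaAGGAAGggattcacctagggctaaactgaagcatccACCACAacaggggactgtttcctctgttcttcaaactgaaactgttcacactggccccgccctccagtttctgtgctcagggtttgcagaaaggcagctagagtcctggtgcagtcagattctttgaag
Gimap1 promoter: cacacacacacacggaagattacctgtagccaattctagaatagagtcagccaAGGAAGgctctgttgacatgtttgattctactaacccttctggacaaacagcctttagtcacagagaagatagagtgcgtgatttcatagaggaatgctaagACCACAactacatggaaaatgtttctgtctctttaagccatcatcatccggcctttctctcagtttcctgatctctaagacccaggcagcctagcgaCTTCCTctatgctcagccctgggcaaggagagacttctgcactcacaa

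AGGAAG was present in 7 of the 9 Gimap promoters, against 35.4% of the 32851 promoters in the table, and TGTGGT in 3 of 9, against 16.8%. Of the printed promoters, Gimap6 held neither word, Gimap3 held 1 AGGAAG, Gimap7 held 1 of each, and Gimap1 held 2 AGGAAG and 1 TGTGGT. The Gimap6 promoter does hold GGAA within other words, such as gcggaagt, which were not counted. The FOXO core GTAAACA was in 1 of 9, that of Gimap3, against 3.65% of all promoters. A pair of GAAA words set 2 bases apart, the core of the interferon-stimulated response element, was in 0 of 9, against 3.44%. Matches were sought on both strands and no match of one motif overlapped a match of another in these promoters. The matches describe letters in these windows and do not show binding.

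The kept cells were the barcodes in the deposited log-normalized tables, 4692 of 4780 at day 14 and 3290 of 3376 at day 0, with medians of 2241.5 and 2278.5 UMIs. The B cell receptor gene Cd79a had a UMI in 97.7% of kept cells at day 14 and 97.8% at day 0, so the label of B cells held. Classes were set by marker UMIs. Plasma cells numbered 27 at day 14 and 24 at day 0, germinal center cells 15 and 33, class-switched cells (IgA, IgG or IgE constant genes without Ighd) 13 and 9, cells with IgM but no IgD UMI 1074 and 803, and IgD-positive cells (at least 2 Ighd UMIs) 1485 and 975. The IgA gene Igha was the largest switched gene in 19 of 27 plasma cells at day 14 and 23 of 24 at day 0, and in 9 of 13 and 6 of 9 class-switched cells. The other 2078 and 1446 kept cells met no gate, 1387 and 968 of them with exactly 1 Ighd UMI. Among the barcodes left out of the log tables, 50 at day 14 and 60 at day 0 passed a T cell marker gate. The other 38 and 26, among whose most abundant genes were the goblet cell genes Muc2 and Spink4 at day 14 and the epithelial genes Krt8 and Lgals4 at day 0, served as a gauge of free RNA. Levels are given in CPM, the gene's UMIs scaled to a total of 1000000 UMIs once immunoglobulin and mitochondrially encoded genes are set aside. Since each transcript gives 1 tag at its 3′ end, levels were not divided by length. The summed Gimap level of the gauge barcodes was 56.0 CPM (26.8 to 103) at day 14 and 41.2 CPM (16.6 to 84.98) at day 0. The libraries shared 17 kept barcode sequences.

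In IgD-positive cells Gimap6 was by far the most abundant member, at 505 CPM (483 to 527) at day 14 and 540.0 CPM (512 to 570) at day 0. It ranked 200 and 196 among all genes by UMIs in these cells. Gimap4 stood at 187 CPM at day 14 and 167 CPM at day 0, and Gimap1, the member needed by mature lymphocytes, at 186 and 213 CPM. Gimap4 and Gimap1 exchanged places between the days, and at day 14 they did not differ beyond counting error, while at day 0 their intervals were apart. Gimap5 followed at 100.8 and 102.1 CPM. Gimap3 had 57.5 and 77.4 CPM and Gimap9 had 53.2 and 47.5 CPM, with overlapping intervals at day 14 and intervals apart at day 0. Gimap7, at 29.9 and 36.7 CPM, and Gimap8, at 27.9 and 35.5 CPM, were lowest and could not be ordered on either day. Gimap6 made up 44.0% of the Gimap UMIs of IgD-positive cells at day 14 and 44.3% at day 0.

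**Figure D1:**
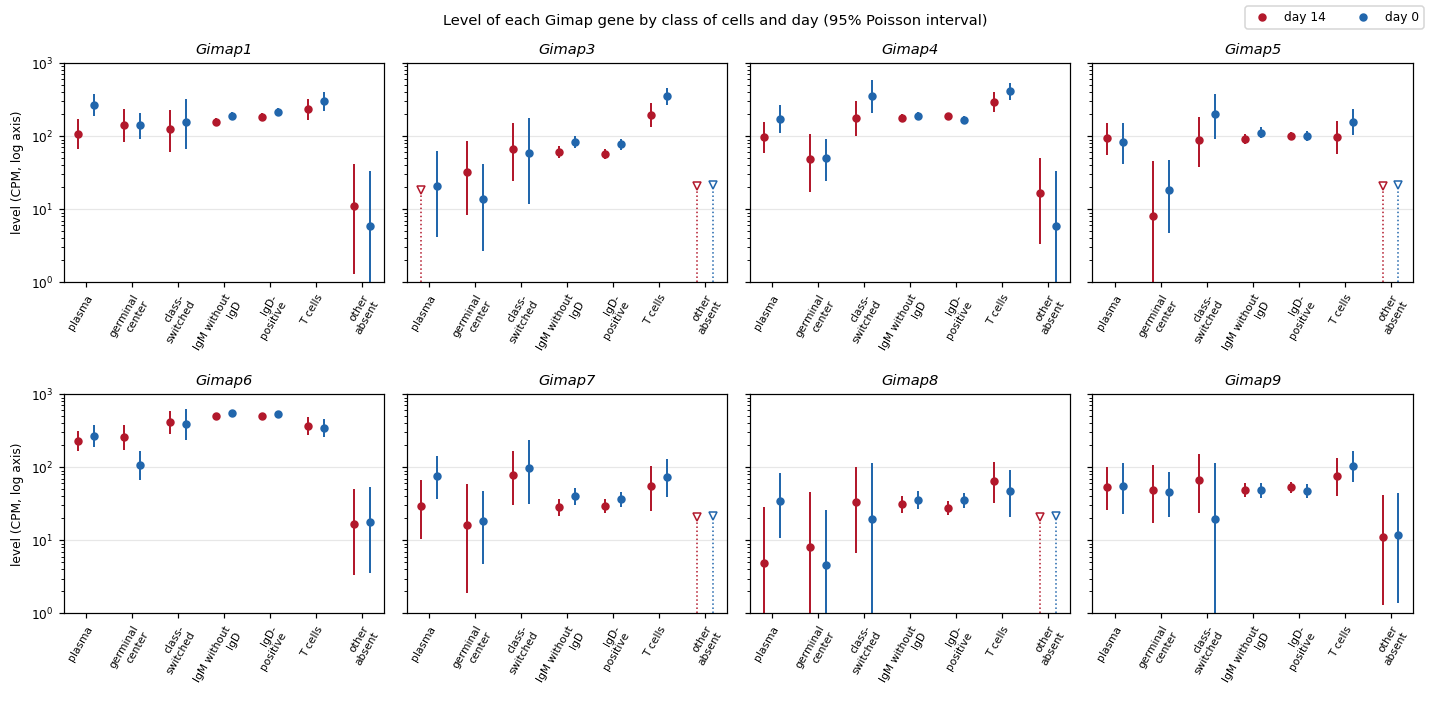
Level of each Gimap gene in CPM on a log axis, by class of cells, with day 14 in red left of day 0 in blue, 95% Poisson intervals as bars (clipped at 1) and open triangles for the upper interval end where no UMI was counted. Gimap3 is highest in T cells (197 CPM at day 14 and 353 CPM at day 0) and has no UMI in plasma cells at day 14, and the other absent barcodes give the level of free RNA.

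At full depth 88.2% of IgD-positive cells at day 14 and 87.9% at day 0 had at least 1 Gimap UMI, against 21.1% and 23.1% of the barcodes that gauge free RNA. Median depths were 2398 and 2417 UMIs in IgD-positive cells and 2042 and 1714.5 UMIs in those barcodes. After each cell was thinned to 1000 UMIs, with 3 and 2 IgD-positive cells and 10 and 9 of those barcodes too shallow to be used, the shares were 65.9% (63.4 to 68.3) and 65.1% (62.0 to 68.1) in IgD-positive cells. They were 7.14% (2 of 28) at day 14 and 0 of 17 at day 0, which allows up to 17.6%, in the other barcodes. Detection in B cells was thus well above that of free RNA. Gimap6 alone was found in 40.3% and 37.8% of thinned IgD-positive cells (67.4% and 66.6% at full depth), and Gimap1 in 16.9% and 17.5% (35.6% and 37.5% at full depth). The IgD-positive gate rests on few UMIs, since 831 of its 1485 cells at day 14 and 532 of 975 at day 0 had exactly 2 Ighd UMIs.

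Plasma cells, the antibody-secreting end stage of the lineage, held Gimap transcripts at a lower summed level than IgD-positive cells on both days, and the ratio ranged widely among the members. The summed level was 620.3 CPM (517 to 739; 126 UMIs) in plasma cells against 1147 CPM (1114 to 1181) in IgD-positive cells at day 14, a ratio of 0.541 (0.449 to 0.646). At day 0 it was 985 CPM (830 to 1161; 142 UMIs) in plasma cells against 1219 CPM (1176 to 1263) in IgD-positive cells, a ratio of 0.808 (0.678 to 0.956). The day 0 sum leaned on Gimap6, which gave 44.3% of the Gimap UMIs of IgD-positive cells and was at a ratio of 0.501. The median log2 ratio of the 8 genes at day 0 was 0.01, so the lower sum there was not shared by most members. At day 14 the B cell transcripts named next lay on both sides of the summed Gimap ratio, with Cd79b above it. At day 0 all of them lay below it. The plasma over IgD-positive ratio of Ms4a1, which encodes CD20, was 0.0921 at day 14 and 0.0376 at day 0, and that of the MHC class II gene H2-Aa 0.0486 and 0.0846. Fcer2a (CD23) had 0 UMIs in plasma cells on both days, against 795 and 919 in IgD-positive cells, and Cd22 had 0 and 1. The B cell receptor gene Cd79b, by contrast, had 625 CPM in plasma cells against 820 CPM in IgD-positive cells at day 14 and 562 against 862 CPM at day 0. Cd79a had 955 against 2270.4 CPM and 1047.5 against 2285 CPM. Cd74, the MHC class II chaperone, had 6735 against 26702 CPM at day 14 and 13118 against 28520 CPM at day 0. The T cell markers other than Cd2, 9 genes, had 0 UMIs in plasma cells on both days. Cd2 itself went the other way, with 16 UMIs (78.8 CPM) in plasma cells at day 14 and 45 UMIs (312 CPM) at day 0. It also gave most T cell marker UMIs of IgD-positive cells, where the list had 774 and 775 UMIs with Cd2 and 100 and 99 without it. Without the plasma cells that held 2 or more UMIs of Ms4a1, Fcer2a and Cd22, the ratios were 0.533 with 25 cells and 0.787 with 22 cells.

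Gimap5 and Gimap9 did not differ between plasma and IgD-positive cells beyond counting error on either day, and Gimap7 was higher in plasma cells at day 0. Gimap5 had 93.5 CPM in plasma cells against 100.8 CPM in IgD-positive cells at day 14, a ratio of 0.928 (0.553 to 1.47), and 83.2 against 102.1 CPM at day 0, a ratio of 0.815 (0.416 to 1.45). Gimap9 had 11 and 8 UMIs in plasma cells, with ratios of 1.02 (0.5004 to 1.86) at day 14 and 1.17 (0.493 to 2.38) at day 0. Gimap7, known from the human protein as a GTPase that can activate other family members, had a ratio of 0.988 (0.355 to 2.22) at day 14 from 6 UMIs and 2.08 (1.003 to 3.90) at day 0 from 11 UMIs. These intervals are wide, and the depth cannot show a difference smaller than they span.

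Gimap6 and Gimap3 were lower in plasma cells on both days. Gimap6 had 231 CPM (170.01 to 308; 12 of the 47 UMIs from 1 cell) in plasma cells against 505 CPM in IgD-positive cells at day 14, a ratio of 0.459 (0.336 to 0.612), and 271 CPM (192 to 370) against 540.0 CPM at day 0, a ratio of 0.501 (0.355 to 0.689). Gimap3 had 0 UMIs in plasma cells against 227 in IgD-positive cells at day 14, which with a floor of 3 counts over the class is at least 3.89-fold lower. At day 0 Gimap3 had 3 UMIs in plasma cells against 194 in IgD-positive cells, a ratio of 0.269 (0.0550 to 0.798). Gimap1 and Gimap4 were past 1.5-fold lower in plasma cells at day 14 and not at day 0. The Gimap1 ratio was 0.583 (0.363 to 0.890) at day 14 and 1.27 (0.893 to 1.76) at day 0, and the Gimap4 ratio 0.526 (0.319 to 0.818) and 1.04 (0.664 to 1.55). Gimap8 had 1 UMI in plasma cells at day 14, a ratio of 0.177 (0.00443 to 1.005), and 5 UMIs at day 0, a ratio of 0.977 (0.310 to 2.37).

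At day 14, 5 of the 8 genes were at least 1.5-fold lower in plasma cells and 0 at least 1.5-fold higher. At least 1.5-fold lower were 33.8% of all genes with 50 UMIs in this comparison, and 27.7% were that much higher. At day 0, 2 of 8 were lower and 1 higher, against 32.6% and 28.9% of all genes, so the day 0 count was near the background. The median log2 ratio of the 8 genes was -0.85 at day 14, against -0.11 for all genes, and 0.01 at day 0, against -0.07 for all genes. All 8 genes passed the minimum of 50 UMIs in every comparison of a B cell class with IgD-positive cells, since the IgD-positive cells alone gave each of them 89 UMIs or more.

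**Figure D2:**
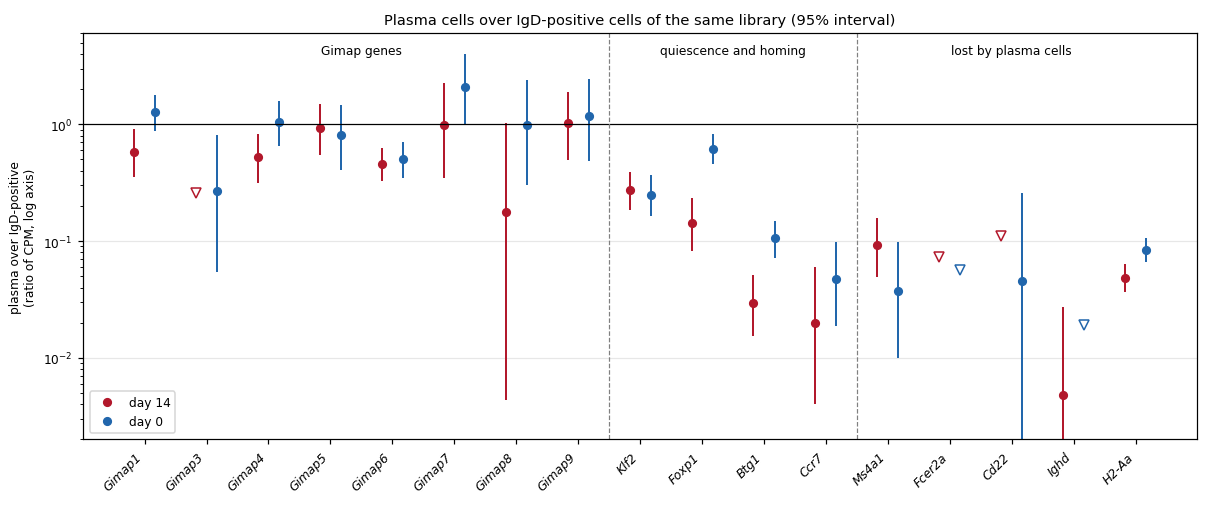
Level in plasma cells over the level in IgD-positive cells of the same library, on a log axis, for the 8 Gimap genes, 4 genes of lymphocyte quiescence and homing and 5 genes that plasma cells are known to lose, with day 14 in red left of day 0 in blue, 95% intervals as bars (clipped at 0.002) and open triangles for upper bounds where plasma cells had no UMI. Gimap5, Gimap7 and Gimap9 lie near or above 1, while Ms4a1 lies at 0.0921 and 0.0376.

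How the level is divided matters in these cells. Immunoglobulin transcripts took 50.7% of plasma cell UMIs at day 14 and 64.3% at day 0, and with all UMIs as the denominator the plasma over IgD-positive ratios were 0.271 and 0.290. Counted per cell, plasma cells held more Gimap UMIs, 4.67 against 3.05 in IgD-positive cells at day 14 and 5.92 against 3.14 at day 0, which turns the ratios to 1.53 and 1.89. Their median depth was 14833 and 18973.5 UMIs, against 2398 and 2417 UMIs in IgD-positive cells. At day 14 the 27 plasma cells held between 0 and 17 Gimap UMIs each (median 5), and at day 0 the 24 held between 1 and 15 (median 6). At full depth 88.9% of plasma cells at day 14 and 100% at day 0 had a Gimap UMI, and after thinning to 1000 UMIs 18.5% (6.30 to 38.1) and 29.2% (12.6 to 51.1) had one. When immunoglobulin and mitochondrial UMIs were set aside before thinning, the shares were 40.7% (22.4 to 61.2) and 62.5% (40.6 to 81.2).

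Between the days, the summed Gimap level of plasma cells was 0.630 times as high at day 14 as at day 0 (0.491 to 0.806), but 0.879 (0.686 to 1.13) with all UMIs as the denominator. Gimap1 had 22 UMIs (108 CPM) in day 14 plasma cells against 39 UMIs (271 CPM) in day 0 plasma cells, a ratio of 0.4003 (0.226 to 0.692). Gimap4 was at 0.568 (0.299 to 1.06), Gimap6 at 0.855 (0.547 to 1.34) and Gimap5 at 1.12 (0.518 to 2.54). Of these 4 intervals the one of Gimap1 excluded 1. Of the 2 members with 50 UMIs over both days, Gimap1 was at least 1.5-fold lower and none was higher, where 18.7% of all genes were that much lower and 15.6% higher. The immunoglobulin share differed between the days as given above, and its part in the Gimap difference was not tested.

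The class-switched gate took in 2 kinds of cells, which bears on every value of it. Of its 13 cells at day 14, 2 had 116 and 122 UMIs of plasma cell markers, and of its 9 cells at day 0, 2 had 58 and 89, while the other cells had at most 4 and 3. Immunoglobulin made up between 14.2% and 19.4% of the UMIs of these 4 cells, under the 20% of the plasma gate, and they supplied 38.7% and 45.9% of the UMIs behind the class levels but 3 and 7 Gimap UMIs. For the whole gate the summed level was 1057 CPM (854 to 1293) in class-switched cells against 1147 CPM in IgD-positive cells at day 14, a ratio of 0.922 (0.743 to 1.13), and 1306 CPM (1010.0 to 1661) against 1219 CPM at day 0, a ratio of 1.07 (0.826 to 1.37) that turned to 0.922 with TMM scaling and 0.988 with median-of-ratios scaling. Without the 2 cells of each day the ratios were 1.46 (1.17 to 1.79) with 11 cells and 1.77 (1.34 to 2.29) with 7 cells. At day 0, 1 of these 7 cells held 27 of the 59 Gimap UMIs, and without it the ratio was 1.37 (0.936 to 1.94), an interval that includes 1. At day 14 the cell with most Gimap UMIs held 14 of 91, and without it the ratio was 1.33 (1.04 to 1.66). With at least 20 switched UMIs required, 3 and 4 cells were left and the ratios were 0.274 and 0.286. So few cells make up this class that its Gimap level turned on which of them were counted.

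Gimap7 had the highest ratio of class-switched to IgD-positive cells among the members on both days. It had 7 UMIs (78.7 CPM) in class-switched cells against 29.9 CPM in IgD-positive cells at day 14, a ratio of 2.63 (1.04 to 5.60), and 5 UMIs (98.9 CPM) against 36.7 CPM at day 0, a ratio of 2.70 (0.855 to 6.52). At day 0, 4 of the 5 UMIs came from 1 cell. Gimap4 was at 180 CPM in class-switched cells against 187 CPM in IgD-positive cells at day 14, a ratio of 0.961 (0.546 to 1.57), and at 356 CPM (211 to 563) against 167 CPM at day 0, a ratio of 2.13 (1.25 to 3.41). At day 14, 1 of 8 genes was at least 1.5-fold higher and 1 lower, against 26.3% and 21.3% of all genes. At day 0, 3 were higher and 2 lower, against 28.8% and 19.5% of all genes. The higher ones were Gimap4, Gimap5 and Gimap7, and like Gimap7 the other members leaned on few cells. A single cell held 8 of the 18 Gimap4 UMIs, and a single cell 7 of the 10 Gimap5 UMIs. The lower ones, Gimap8 and Gimap9, had 1 UMI each. With TMM scaling Gimap1, Gimap3 and Gimap6 at day 0 were also past 1.5-fold lower, at 0.640, 0.661 and 0.631. The counts turned on the 2 cells of each day with plasma markers. Without them 5 genes were higher and 0 lower at day 14, against 22.7% and 16.2% of all genes. Of these 5, the interval of Gimap7 excluded 1. Those of Gimap3, at 1.91 (0.695 to 4.23), Gimap4, at 1.57 (0.891 to 2.56), Gimap8, at 1.97 (0.401 to 5.92), and Gimap9, at 2.07 (0.751 to 4.58), included it. At day 0, 3 were then higher and 0 lower, against 29.1% and 10.1% of all genes, with Gimap9 at 0 UMIs and not decided. Gimap7 was then at 4.29 (1.69 to 9.13) and 4.99 (1.58 to 12.1), and at 3.30 (1.05 to 7.92) and 1.19 (0.0297 to 6.77) when the cell with most Gimap7 UMIs was left out as well. At day 0 the median log2 ratio of the 8 genes was -0.41 while the summed ratio was above 1. Between the days the summed ratio was 0.809 (0.585 to 1.13), and the 1 member with 50 UMIs over both days, Gimap6, was not 1.5-fold apart at 1.05 (0.595 to 1.91), where 10.1% of all genes were that much higher and 18.8% lower.

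Germinal center cells, which divide and mutate their antibody genes, had the lowest summed Gimap level of the B cell classes at day 0. The summed level was 561 CPM (438 to 709; 70 UMIs) in germinal center cells at day 14 against 1147 CPM in IgD-positive cells, a ratio of 0.490 (0.381 to 0.620), and 399 CPM (320.0 to 492; 88 UMIs) at day 0 against 1219 CPM, a ratio of 0.327 (0.262 to 0.405). Counted per cell, germinal center cells held 4.67 Gimap UMIs against 3.05 in IgD-positive cells at day 14, which turns that ratio to 1.53 (1.19 to 1.94), and 2.67 against 3.14 at day 0, a ratio of 0.851 (0.680 to 1.05). Their median depth was 7434 and 5956 UMIs, against 2398 and 2417 UMIs in IgD-positive cells. Of the 8 genes, 6 at day 14 and 7 at day 0 were at least 1.5-fold lower, where 23.3% and 22.9% of all genes were. None was that much higher, where 30.8% and 29.2% of all genes were. Of the genes counted as lower, Gimap3, Gimap7 and Gimap8 had 4, 2 and 1 germinal center UMIs at day 14 and 3, 4 and 1 at day 0. The Gimap7 ratio at day 0 was 0.494 (0.132 to 1.31), an interval that includes 1. Median-of-ratios scaling lowers all germinal center ratios further, by 0.16 and 0.14 on the log2 scale. Gimap5 had 1 UMI in germinal center cells against 398 in IgD-positive cells at day 14, a ratio of 0.0796 (0.00201 to 0.446), and 4 UMIs against 256 at day 0, a ratio of 0.178 (0.0480 to 0.460). Gimap4 was at 0.257 (0.0940 to 0.562) and 0.299 (0.148 to 0.540). Gimap9 was the member nearest to its IgD-positive level, at 0.905 (0.328 to 2.00) and 0.956 (0.447 to 1.82), and Gimap1 followed at 0.778 (0.458 to 1.24) and 0.660 (0.444 to 0.948). At day 14, 1 germinal center cell held 10 or more plasma marker UMIs, and without it the summed day 14 ratio was 0.503 (0.386 to 0.645). Without that cell Gimap3 was at 0.637 (0.172 to 1.65), Gimap7 at 0.613 (0.0733 to 2.26) and Gimap8 at 0.329 (0.00825 to 1.87). These intervals include 1. The same limit holds with that cell counted, where Gimap3 had 32.1 CPM (8.74 to 82.1), Gimap7 16.0 CPM (1.94 to 57.95) and Gimap8 8.02 CPM (0.203 to 44.7). Each overlaps its IgD-positive interval at day 14, so the place of these genes among the lower ones was within counting error.

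Gimap6 was the one member of germinal center cells that differed between the days beyond counting error. It had 32 UMIs (257 CPM) in day 14 germinal center cells against 24 UMIs (109 CPM) in day 0 germinal center cells, a ratio of 2.36 (1.35 to 4.18). Gimap6 was also the 1 member with 50 UMIs over both days, and it was at least 1.5-fold higher, as were 7.49% of all genes, with 9.60% that much lower. The summed ratio was 1.41 (1.01 to 1.95), with median-of-ratios scaling 1.37 (0.989 to 1.90), and without the 1 cell with plasma markers it was 1.45 (1.03 to 2.02). Gimap1, at 144 CPM at day 14 and 141 CPM at day 0, and Gimap4, at 48.1 and 49.9 CPM, had ratios of 1.03 (0.541 to 1.89) and 0.965 (0.293 to 2.85).

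Cells with IgM but no IgD UMI were close to IgD-positive cells in summed level. Their summed level was 1101 CPM (1061 to 1143) at day 14 and 1257 CPM (1207 to 1309) at day 0, with ratios to IgD-positive cells of 0.960 (0.916 to 1.01) and 1.03 (0.977 to 1.09). None of the 8 genes was 1.5-fold apart on either day, where 1.60% and 1.98% of all genes were that much higher and 2.26% and 2.68% lower. Gimap1 was lower at day 14, with 156 CPM in cells with IgM but no IgD UMI against 186 CPM in IgD-positive cells, a ratio of 0.839 (0.741 to 0.949). Ighd UMIs were few per cell, and 831 of 1485 IgD-positive cells at day 14 and 532 of 975 at day 0 had exactly 2. A cell that expresses Ighd may thus show no Ighd UMI, so this class is not shown to be a separate population.

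The T cells showed another make-up of the family. The summed level was 1147 CPM in IgD-positive cells against 1396 CPM (1230.3 to 1579) in T cells at day 14, a ratio of 0.821 (0.724 to 0.935), and 1219 CPM against 1792 CPM (1606 to 1993) at day 0, a ratio of 0.680 (0.608 to 0.763). Gimap3 was the furthest apart by ratio on both days. It had 57.5 CPM in IgD-positive cells against 197 CPM (138 to 273) in T cells at day 14, a ratio of 0.292 (0.205 to 0.427), and 77.4 CPM against 353 CPM (274 to 448) at day 0, a ratio of 0.219 (0.165 to 0.294). Gimap4 was at 187 CPM in IgD-positive cells against 296 CPM in T cells at day 14, a ratio of 0.633 (0.480 to 0.851), and at 167 against 411 CPM at day 0, a ratio of 0.407 (0.319 to 0.525). Gimap6 ran the other way, with 505 CPM in IgD-positive cells against 372 CPM in T cells at day 14, a ratio of 1.36 (1.06 to 1.75), and 540.0 against 343 CPM at day 0, a ratio of 1.58 (1.23 to 2.05). Gimap3 made up 5.01% of Gimap UMIs in IgD-positive cells against 14.1% in T cells at day 14, and 6.35% against 19.7% at day 0.

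The median-of-ratios shift of this comparison at day 0 was 0.16 on the log2 scale. In IgD-positive cells 4 of the 8 genes at day 14 and 5 at day 0 were at least 1.5-fold lower than in T cells, where 21.0% and 17.3% of all genes were. At least 1.5-fold higher were 0 genes at day 14 and 1, Gimap6, at day 0, against 28.1% and 33.2% of all genes. With TMM or median-of-ratios scaling Gimap6 at day 0 was at 1.43 and 1.41, still higher in IgD-positive cells but under 1.5-fold. Plasma cells were at 0.444 (0.356 to 0.552) and 0.550 (0.449 to 0.671) of the summed level of T cells. Of the members with 50 UMIs in that comparison, 3 of 3 at day 14 and 2 of 4 at day 0 were at least 1.5-fold lower in plasma cells, where 21.2% and 28.0% of all genes were, and none was higher, where 44.6% and 46.5% were. In plasma cells Gimap3 was at least 13.3-fold lower than in T cells at day 14 and at a ratio of 0.0589 (0.0119 to 0.180) at day 0. The 9 T cell markers other than Cd2 stood at 25.3 CPM in IgD-positive cells against 5980.2 CPM in T cells at day 14, and at 39.5 against 7662 CPM at day 0. With Cd2 included, the list stood at 196 against 6232 CPM at day 14 and at 309 against 8099 CPM at day 0. The T cell set also held markers of natural killer and innate lymphoid cells, a list of 5 genes. They stood at 904 CPM in it at day 14 and 1349 CPM at day 0, against 0.507 and 1.60 CPM in IgD-positive cells. Whether other lymphocytes were part of the set was not tested. One T cell barcode at day 14 held 660 UMIs of stromal and endothelial genes, and no doublets were removed.

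**Figure D3:**
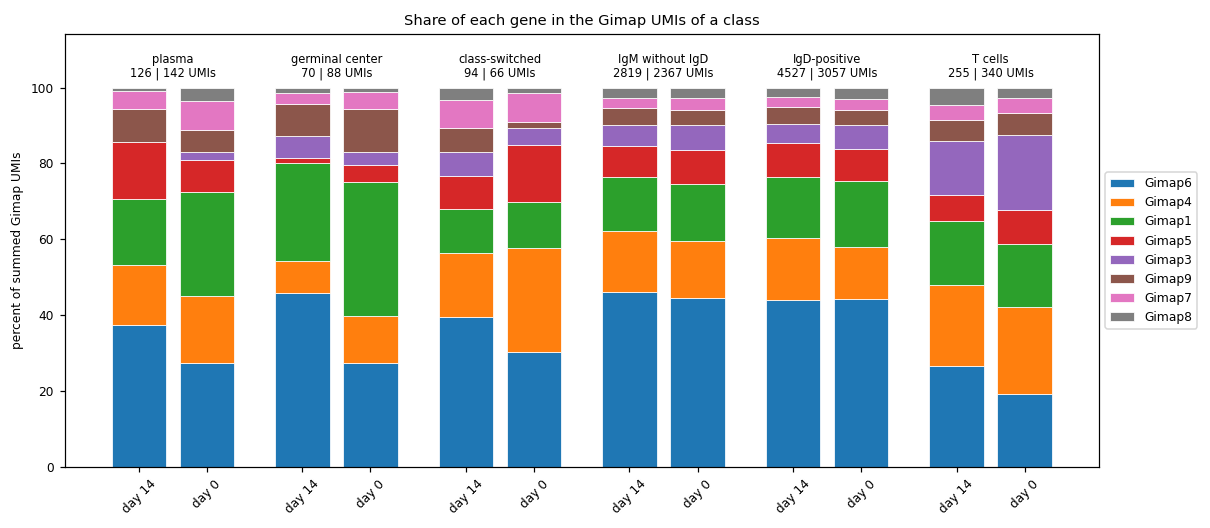
Share of each Gimap gene in the summed Gimap UMIs of a class, in percent, as stacked bars with day 14 left of day 0 and the number of Gimap UMIs above each pair. Gimap6 takes 44.0% and 44.3% in IgD-positive cells and 26.7% and 19.1% in T cells, where Gimap3 takes 14.1% and 19.7%.

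Between recovery from DSS and the untreated state, the Gimap genes of IgD-positive cells differed little. Their summed level was 1147 CPM at day 14 against 1219 CPM at day 0, a ratio of 0.941 (0.898 to 0.985). Of the 8 genes, 0 were at least 1.5-fold higher or lower, where 1.90% of all genes were that much higher and 5.36% lower. The median log2 ratio was -0.15 for the Gimap genes and -0.09 for all genes. Scaled by TMM or by the median of ratios, which remove that common shift, the summed ratio was 0.997 and 0.998, so no direction holds for the family as a whole.

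Among the members, Gimap3 had the lowest ratio in IgD-positive cells. It was at 57.5 CPM at day 14 against 77.4 CPM at day 0, a ratio of 0.743 (0.611 to 0.905). In cells with IgM but no IgD UMI it was at 60.5 against 83.9 CPM, a ratio of 0.722 (0.574 to 0.906). In kept cells of no class it was at 60.6 against 83.9 CPM, a ratio of 0.723 (0.610 to 0.857). In the T cells Gimap3 had 197 CPM at day 14 against 353 CPM at day 0, a ratio of 0.558 (0.362 to 0.849), and it was the 1 of 4 members with 50 UMIs past 1.5-fold there, where 8.07% of all genes were that much lower and 10.5% higher. Gimap7 was at 0.815 (0.615 to 1.08) in IgD-positive cells. In cells with IgM but no IgD UMI it was at 0.707 (0.505 to 0.987), and at 0.743 (0.531 to 1.04) with median-of-ratios scaling. In kept cells of no class it was at 0.504 (0.382 to 0.664), with 19.997 CPM at day 14 against 39.6 CPM at day 0. In the last group it was the 1 of 8 genes at least 1.5-fold lower, where 4.74% of all genes were, and 0 were higher, where 1.96% of all genes were. In cells with IgM but no IgD UMI 0 of 8 passed 1.5-fold, where 2.33% of all genes were higher and 5.86% lower. Over all kept cells Gimap7 was at 0.657 (0.559 to 0.772), the 1 of 8 genes past 1.5-fold, where 1.29% of all genes were higher and 5.05% lower, and at 0.700 with median-of-ratios scaling. Gimap9 and Gimap4 lay on the other side, at 1.12 (0.891 to 1.42) and 1.12 (0.992 to 1.27) in IgD-positive cells, with intervals that include 1.

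**Figure D4:**
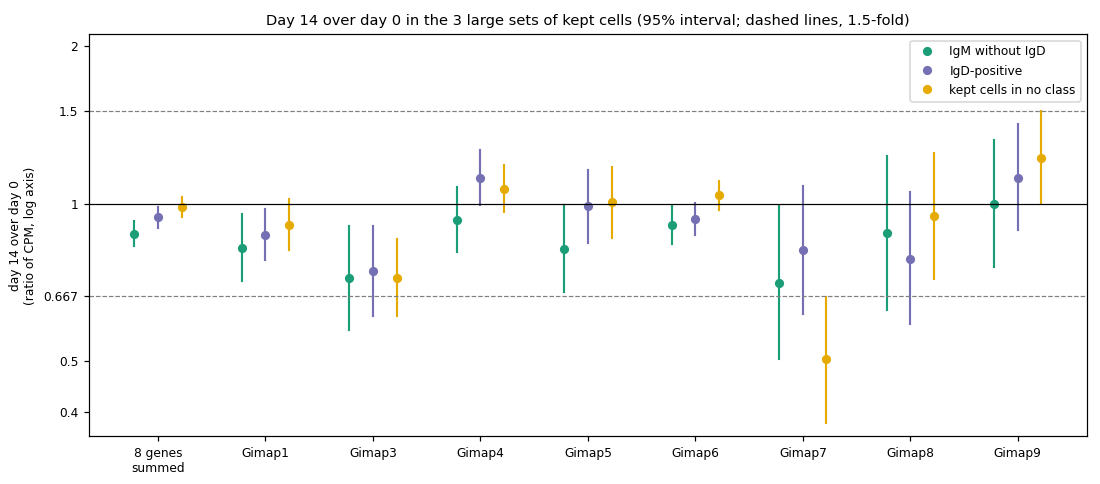
Level at day 14 over the level at day 0, on a log axis, for the summed Gimap genes and each gene in cells with IgM but no IgD UMI (green), IgD-positive cells (violet) and kept cells in no class (yellow), with 95% intervals as bars and dashed lines at 1.5-fold. Gimap3 lies between 0.722 and 0.743 in all 3 sets, and Gimap7 reaches 0.504 in cells of no class.

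The day 14 library also held cells with interferon-induced transcripts, and the summed Gimap level was higher in them. A cell was counted as interferon-responding with 5 or more UMIs of Serpina3g, Serpina3f, Tgtp1, Tgtp2, Gbp7, Ifi47, Igtp and Iigp1, which 100 of 4692 kept cells reached. The gate cuts a range, with 61 cells at 4 list UMIs and 36 at 5. Such cells were not confined to day 14, since at day 0 the gate left 973 of 975 IgD-positive cells and 22 of 24 plasma cells below it. Only the day 14 cells were compared. The summed Gimap level was 1668 CPM in them against 1101 CPM in the other 4592 kept cells, a ratio of 1.52 (1.39 to 1.65). Gimap4 and Gimap7 had the highest ratios. Gimap4 was at 378 CPM in interferon-responding cells against 181 CPM in the others, a ratio of 2.09 (1.72 to 2.50), and Gimap7 was at 52.3 against 25.1 CPM, a ratio of 2.09 (1.20 to 3.40). Gimap3 was at 1.90 (1.31 to 2.66) and Gimap9 at 1.75 (1.17 to 2.52), while Gimap1, at 1.08 (0.817 to 1.402), and Gimap8, at 1.11 (0.527 to 2.07), had the lowest. At least 1.5-fold higher were 4 of the 8 genes, where 10.8% of all genes were, and 0 were that much lower, where 19.0% of all genes were.

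T cell markers other than Cd2 were not higher in these cells. The 9 T cell markers other than Cd2 stood at 15.4 CPM (4.995 to 35.9) in the interferon-responding cells against 25.3 CPM (22.5 to 28.5) in the others. Among IgD-positive cells alone, 39 interferon-responding cells had a summed Gimap level of 1742 CPM against 1127 CPM in the other 1446, a ratio of 1.55 (1.34 to 1.77), and Gimap4 was at 2.16 (1.58 to 2.89). In these cells Gimap8 was at 2.07 (0.811 to 4.41) and Gimap1 at 1.39 (0.942 to 1.98), above their ratios over all kept cells but with intervals that include 1. The gate counts UMIs and so favours deeper cells, which had a median of 2808.5 UMIs in the 100 cells against 2232 UMIs in the others, and the part of depth was not tested.

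**Figure D5:**
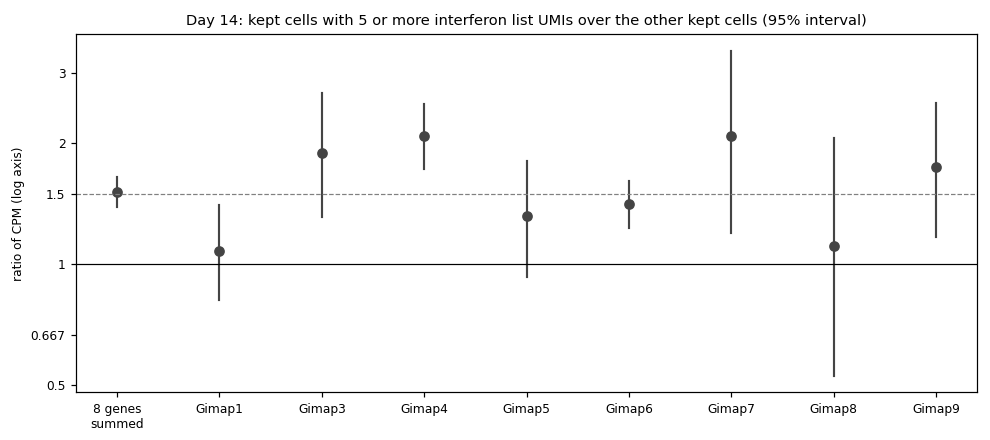
Level in the 100 day 14 kept cells with 5 or more UMIs of the interferon list over the level in the other 4592, on a log axis, for the summed Gimap genes and each gene, with 95% intervals as bars and a dashed line at 1.5-fold. Gimap4 lies at 2.09, while the intervals of Gimap1, at 1.08, and Gimap8, at 1.11, include 1.

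Beside the Gimap genes, most measured genes of a list of 17 for lymphocyte quiescence and homing were lower in plasma cells. Of the 14 with 50 UMIs, 12 were at least 1.5-fold lower and 1 higher at day 14, with a median log2 ratio of -1.85, and 9 were lower and 2 higher at day 0, with a median of -1.53. Of all genes 33.8% were lower and 27.7% higher at day 14 and 32.6% and 28.9% at day 0, with medians of -0.11 and -0.07. Btg1, an antiproliferative gene, had 64.0 CPM in plasma cells against 2164 CPM in IgD-positive cells at day 14, a ratio of 0.0296 (0.0157 to 0.0506), and Ccr7, a homing receptor to lymph nodes, had 14.8 against 736 CPM, a ratio of 0.0201 (0.00413 to 0.0587). Klf2 and Foxp1, transcription factors of resting lymphocytes, were at 0.273 (0.189 to 0.383) and 0.143 (0.0831 to 0.229). At day 0 these ratios were 0.105 for Btg1, 0.0471 for Ccr7, 0.250 for Klf2 and 0.618 for Foxp1. The day 14 values of all 4 lay below the ratio of 0.541 of the summed Gimap genes.

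The list of 16 apoptosis and autophagy genes, which Gimap proteins have been linked to, ran the other way in plasma cells. Of the 14 with 50 UMIs at day 14, 7 were at least 1.5-fold higher and 1 lower, with a median log2 ratio of 0.58, and of 12 at day 0, 9 were higher and 0 lower, with a median of 0.77. These stand against the same shares and medians of all genes, 27.7% higher and 33.8% lower at day 14 and 28.9% and 32.6% at day 0. The autophagy gene Map1lc3b had 650.0 CPM in plasma cells against 348 CPM in IgD-positive cells at day 14, a ratio of 1.87 (1.55 to 2.24), and 680.0 against 385 CPM at day 0, a ratio of 1.77 (1.42 to 2.18). The survival gene Mcl1 was at 2.44 (1.85 to 3.17) and 3.71 (2.81 to 4.83). Gabarapl2, a relative of Gabarap in autophagy, was at 1.64 (1.17 to 2.25) and 2.01 (1.402 to 2.80), while Gabarap itself was at 1.44 (1.18 to 1.75) and 1.005 (0.773 to 1.29). In germinal center cells the quiescence and homing list was again lower, with 11 of 14 lower at day 14 and 13 of 14 at day 0, and 1 higher on each day, where 23.3% and 22.9% of all genes were lower and 30.8% and 29.2% higher. Its median log2 ratio was -1.14 and -2.07, against 0.09 and 0.12 for all genes.

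Over the 8 points of 4 classes (plasma, class-switched, IgM without IgD, IgD-positive) on 2 days, the genes most like the summed Gimap level were Mmd, Sh3bp5, Scaf1, Atxn7l1 and Ahr, with Pearson correlations of log2(CPM + 1) between 0.984 and 0.990 among 5976 genes. All 5 had 0 UMIs in day 14 plasma cells. Mmd, Scaf1 and Atxn7l1 had 6.94 CPM in day 0 plasma cells, and 11.2 and 19.8 CPM in class-switched cells at day 14 and day 0. These are the levels of 1 UMI in those classes, so the correlations rest on a 0 and on single UMIs. The 8 points also come from 2 libraries and differ in cells and depth, so the likeness is a description. Of the members, Gimap3, also at 0 UMIs in day 14 plasma cells, followed the sum most closely, at 0.960, and Gimap9 was at -0.41.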

How the data were processed

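The deposited data are UMI counts per gene and barcode for 1 library per day (10x 3′ chemistry, version 2, per the labels' protocols; Cell Ranger 3.0.1, per the file headers). The submitters' processing notes name mm10 and Seurat 3.0, and no other setting was stated. The authors also deposited natural log values per cell, scaled to 10000 UMIs, which served to define the kept cells.

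Levels were computed from raw counts summed per library and class. The gates were 10 UMIs over 4 of 10 plasma markers with 20% immunoglobulin UMIs; 3 UMIs over 2 of 6 germinal center markers; 10 switched constant UMIs, over 50% of heavy chain UMIs, without Ighd; 2 Ighm UMIs without Ighd; 2 Ighd UMIs; and 3 UMIs over 2 of 10 T cell markers in barcodes outside the log tables. Sums have exact Poisson, shares exact Clopper-Pearson and ratios exact conditional 95% intervals. Ratios past 1.5-fold were counted over genes with 50 UMIs in the comparison, and a class at 0 was set to 3 counts. All 8 members are named, and of each list the 4 genes with most UMIs. Members, lists and gates were chosen with earlier results of these data known. No doublet caller was run, and cells of high UMI count were left out in an alternative. Python 3.11.15, numpy 2.4.6, scipy 1.17.1, matplotlib 3.10.9 and edgeR 4.0.16 (TMM factors) were used.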

Additional observations from a re-analysis of the deposited data

Results flagged for a closer look

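In CPM, the summed Gimap ratio of day 14 over day 0 was 1.41 (1.01 to 1.95) in germinal center cells, from 15 cells at day 14 and 33 at day 0, against 0.941 in IgD-positive cells, 0.876 in cells with IgM but no IgD UMI and 0.630 in plasma cells. Gimap6 was at 2.36 (1.35 to 4.18) in germinal center cells against 0.911 (0.839 to 0.989) in cells with IgM but no IgD UMI. These are listed because, in CPM, the intervals lie on opposite sides of 1. With median-of-ratios scaling, 1 or both intervals of each pair include 1: the summed ratio was 1.37 (0.989 to 1.90) in germinal center cells and 0.998 (0.953 to 1.05) in IgD-positive cells, and Gimap6 in cells with IgM but no IgD UMI was at 0.958 (0.882 to 1.04). Gimap6 in germinal center cells was then at 2.30 (1.31 to 4.09), the summed ratio in cells with IgM but no IgD UMI at 0.921 (0.872 to 0.974) and that in plasma cells at 0.636 (0.496 to 0.814). The difference between classes was not tested, since each day is 1 library.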

How the results depend on the processing

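No paired analysis was possible because each day is 1 library. The finding that 0 of 8 genes in IgD-positive cells passed 1.5-fold between the days held in the alternatives run for it, but with at least 5 Ighd UMIs only 4 of the 8 reached 50 UMIs and could be counted. The summed day 14 over day 0 ratio of IgD-positive cells was 0.997 with TMM, 0.998 with median-of-ratios scaling and 0.879 with at least 5 Ighd UMIs; that of class-switched cells was 0.524 without cells holding 2 or more T cell marker UMIs (11 and 4 cells), and that of plasma cells 0.879 over all UMIs. Plasma over IgD-positive was 0.271 at day 14 and 0.290 at day 0 over all UMIs. Per cell (an alternative chosen after the data were seen) it turned round to 1.53 at day 14 and was 1.89 at day 0. It was 0.993 at day 0 without cells holding 2 or more T cell marker UMIs (11 plasma cells). All 45 T cell marker UMIs of day 0 plasma cells were of Cd2, so there the filter acted through Cd2 alone. Markers other than Cd2 gave 99 of the 775 such UMIs in day 0 IgD-positive cells and 3 of 12 in day 0 class-switched cells. Class-switched over IgD-positive at day 14 was 1.51 without cells of high UMI count, 1.19 when thinned, 0.274 with at least 20 switched UMIs and 1.46 without cells of plasma markers, the last also chosen after the data were seen. At day 0 it was 1.71 without cells of high UMI count, 1.65 without cells holding 2 or more T cell marker UMIs, 0.286 with 20 switched UMIs and 1.77 without cells of plasma markers. IgD-positive over T cells at day 14 was 0.703 without cells of high UMI count and 0.721 when thinned.

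The share of thinned cells with a Gimap UMI follows the depth: at 500 UMIs it was 46.2% and 11.1% in class-switched cells at day 14 and day 0, and 42.0% and 42.7% in IgD-positive cells; at 1500 UMIs it was 88.9% in class-switched cells at day 0, and 74.8% and 77.0% in IgD-positive cells. It was 63.2% and 61.5% in IgD-positive cells once those with 2 or more T cell marker UMIs were left out, 61.5% at day 14 with 5 Ighd UMIs, and 40.7% and 62.5% in plasma cells thinned without immunoglobulin UMIs. The class-switched values without 1 cell and the germinal center values per cell were also alternatives chosen after the data were seen. The cause of these shifts was not tested. Few cells limit the plasma, germinal center and class-switched values.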
